A study of Mus musculus with 4 samples.

Results

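NANOG occupancy was examined around 5 genes that direct early lineage decisions, Otx2, Gata6, Cdx2, Eomes and T, in mouse embryonic stem cells (ESCs) before and shortly after OCT4 depletion. The members are all NANOG windows whose centre lay within 100 kb of the body of one of these genes in GRCm38/mm10: Otx2 at chr14:48657676-48667644, Gata6 at chr18:11052510-11085635, Cdx2 at chr5:147300905-147307264, Eomes at chr9:118478212-118486132 and T at chr17:8434423-8442496. Distances from a gene start or end are measured from these coordinates, although for Otx2 the annotation also holds a transcript that starts farther upstream, at 48673819. This gave 20 of the 21066 windows of the study, 8 at Otx2, 7 at Eomes, 3 at Cdx2 and 1 each at Gata6 and T. Each window is 351 bp wide and centred on the summit of a NANOG peak. All 20 reached 0.9 RPKM (a read count divided by window length and by library size) in at least one condition, as did 16608 of all windows. Windows above this value are called bound peaks.

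NANOG was measured by chromatin immunoprecipitation and sequencing (ChIP-seq, antibody against NANOG) in ZHBT-O4AID ESCs of the 129SV strain. Both groups share one genotype. The endogenous locus is Oct4-/-, wild-type OCT4 comes from a TetOFF Oct4 transgene kept off by 1 μg/ml doxycycline, and the CAG promoter drives both Oct4AID, which encodes OCT4 fused to an auxin-inducible degron, and Tir1, which encodes the plant adaptor that lets auxin send the fusion for destruction. All cells grew in N2B27 with LIF, 1 μM of the MEK inhibitor PD03 and 3 μM of the GSK3 inhibitor Chiron. Uninduced cells (2 replicates) were compared with cells treated for 1.5 h (2 replicates) with auxin (indole-3-acetic acid, IAA) at 500 μM, which asks how NANOG binding changes at once when OCT4 is removed. Nothing in the labels says whether replicates were separate cultures, so p-values measure the spread between these libraries, which may be technical. The line is an engineered one, and a single time point was analysed.

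NANOG and OCT4 are transcription factors of naive pluripotency that share many enhancers, where OCT4 usually binds next to SOX2. In ESCs the same regions can lie near genes that are silent or weakly transcribed and are used only after the cells leave the naive state. CDX2 is a homeodomain factor of the trophectoderm, the first extraembryonic layer, and EOMES is a T-box factor used both in trophoblast and in the primitive streak. GATA6 is a zinc finger factor that specifies primitive endoderm. T (Brachyury) is the T-box factor of the primitive streak and mesoderm, and OTX2 is a homeodomain factor of the post-implantation epiblast and the anterior neural plate. A NANOG peak near a gene need not act on that gene, and windows were assigned here by distance alone.

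The central 201 bases of 5 windows are printed because the results turn on them or because they hold the octamer, the DNA element read by OCT4. These are the windows inside Otx2, Cdx2 and Eomes and a distal Otx2 window with an octamer. Letters are from the RefSeq GRCm38 reference on the plus strand, which is not the strain of the cells. Capitals mark a match, on either strand, to the octamer ATGCAAAT or to the SOX core CATTGT.
Otx2, 4.6 kb into the gene (chr14:48662985-48663185): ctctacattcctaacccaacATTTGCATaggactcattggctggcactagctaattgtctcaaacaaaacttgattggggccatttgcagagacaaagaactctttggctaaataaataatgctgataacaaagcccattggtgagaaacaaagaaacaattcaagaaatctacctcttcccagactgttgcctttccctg
Otx2, 62.6 kb upstream (chr14:48730140-48730340): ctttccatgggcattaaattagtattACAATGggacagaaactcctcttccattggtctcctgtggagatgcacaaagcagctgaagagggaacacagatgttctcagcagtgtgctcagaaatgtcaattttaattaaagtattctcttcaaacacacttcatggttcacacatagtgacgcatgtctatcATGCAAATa
Cdx2, 2.9 kb into the gene (chr5:147304296-147304496): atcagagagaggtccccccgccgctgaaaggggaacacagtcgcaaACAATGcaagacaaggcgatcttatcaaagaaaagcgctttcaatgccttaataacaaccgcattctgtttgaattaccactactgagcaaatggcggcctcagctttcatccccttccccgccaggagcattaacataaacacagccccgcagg
Eomes, 2.8 kb into the gene (chr9:118480932-118481132): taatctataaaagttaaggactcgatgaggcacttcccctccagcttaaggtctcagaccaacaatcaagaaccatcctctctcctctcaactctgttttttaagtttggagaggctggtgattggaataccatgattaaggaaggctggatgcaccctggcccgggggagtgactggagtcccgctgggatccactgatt
Eomes, 4.1 kb into the gene (chr9:118482197-118482397): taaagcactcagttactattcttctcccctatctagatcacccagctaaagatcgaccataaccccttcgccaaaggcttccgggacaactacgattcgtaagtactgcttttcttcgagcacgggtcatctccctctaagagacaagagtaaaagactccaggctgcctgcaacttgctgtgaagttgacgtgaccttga

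Over the whole windows the octamer was found in 2 of 20 members (10%), both at Otx2, against 2.96% of all bound peaks. The SOX core occurred in 9 of 20 (45.0%, against 37.0%) and the NANOG homeodomain core TAATGG in 2 of 20 (10%, against 20.9%). Each motif was searched on both strands, no matches of different motifs overlapped within a member, and the figures describe letters in these windows only. GC content of the members ranged from 38.2% to 53.6% with a median of 44.6%, beside a median of 46.2% over bound peaks.

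The libraries differed in depth. The reads behind each value were recovered from the steps between RPKM values, and library totals ran from 5406307 reads (IAA replicate 2) to 19634763 reads (IAA replicate 1). The median number of reads in a member window was 8 in uninduced replicate 1, 14.5 in uninduced replicate 2, 29 in IAA replicate 1 and 8 in IAA replicate 2. In the last, the shallowest library, a step of 1 read is 0.527 RPKM, against 0.145 RPKM in IAA replicate 1, so its values are the least precise. The share of reads within bound peaks also moved with the groups, from 1.60% and 2.28% in uninduced cells to 3.05% and 3.24% after IAA, and changes after scaling to these reads are given below where they differ in sign or call.

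NANOG signal rose at 2 of the 20 windows and fell at 0 after 1.5 h of IAA, both rises inside Eomes (limma, Benjamini-Hochberg adjusted over all 16608 bound peaks, threshold 0.05). Over all bound peaks 15.0% were called higher and 0.337% lower by the same test. At an unadjusted limma p under 0.05, 4 windows were higher and 1 was lower, beside 5505 higher and 143 lower of all 16608 bound peaks. The IAA values both exceeded the uninduced ones at 10 of 20 windows, against 60.5% of bound peaks, and below both at 2 of 20, against 4.23% of bound peaks. At the remaining 8 windows the groups overlapped, beside 5850 of all bound peaks. The median change over the members, in log2(RPKM + 0.1), was 0.46, beside 0.76 over all bound peaks, and 6 of the 20 lay above that median. The sign of a small change rests on the scaling. As deposited, 14 of 20 windows had a positive change, beside 14243 of all 16608 bound peaks. After scaling to reads in bound peaks or after quantile normalization, 7 of 20 windows had a positive change. The median of all bound peaks moved to 0.06 and 0.04 under these, in that order.

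**Figure D1:**
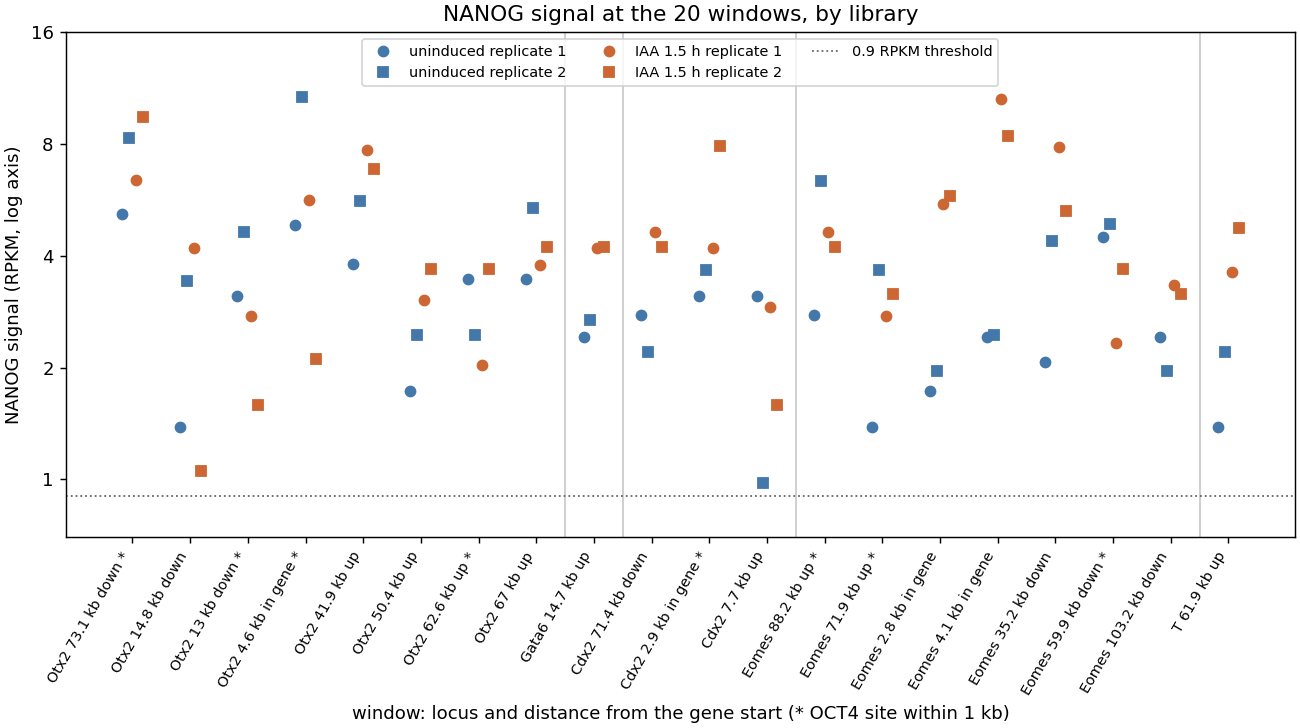
NANOG signal in RPKM (log axis) at each of the 20 windows, ordered by position within each locus, with uninduced libraries in blue and IAA libraries in orange (circles replicate 1, squares replicate 2). The 2 windows inside Eomes have both IAA values far above both uninduced values, whereas the window inside Otx2 has its highest value in uninduced replicate 2, at 10.7 RPKM, and its lowest in IAA replicate 2, at 2.11 RPKM.

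The members differed by whether the study's OCT4 flag, an OCT4 ChIP-seq site from published ESC data within 1 kb, was set. It was set at 8 of 20 members (40.0%), beside 23.7% of all bound peaks. The 8 flagged members had a median log2 change of -0.00, with a range of -1.04 to 0.76, and both IAA libraries were above both uninduced libraries at 1 of them and below at 2. The 12 unflagged members had a median of 0.69, with a range of -0.11 to 1.92, and both IAA libraries were above at 9 and below at 0. Over all bound peaks the medians were 0.39 with the flag and 0.86 without it, so the flagged and unflagged members stand in the same order as the whole. Both IAA libraries were above at 41.8% of all flagged bound peaks and below at 10.7%. Of all unflagged bound peaks they were above at 66.4% and below at 2.22%. Few members carried another flag: 1 was in the active promoter class, 1 in the repressed class and 0 in the active enhancer class, and both of the former also had the OCT4 flag.

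**Figure D2:**
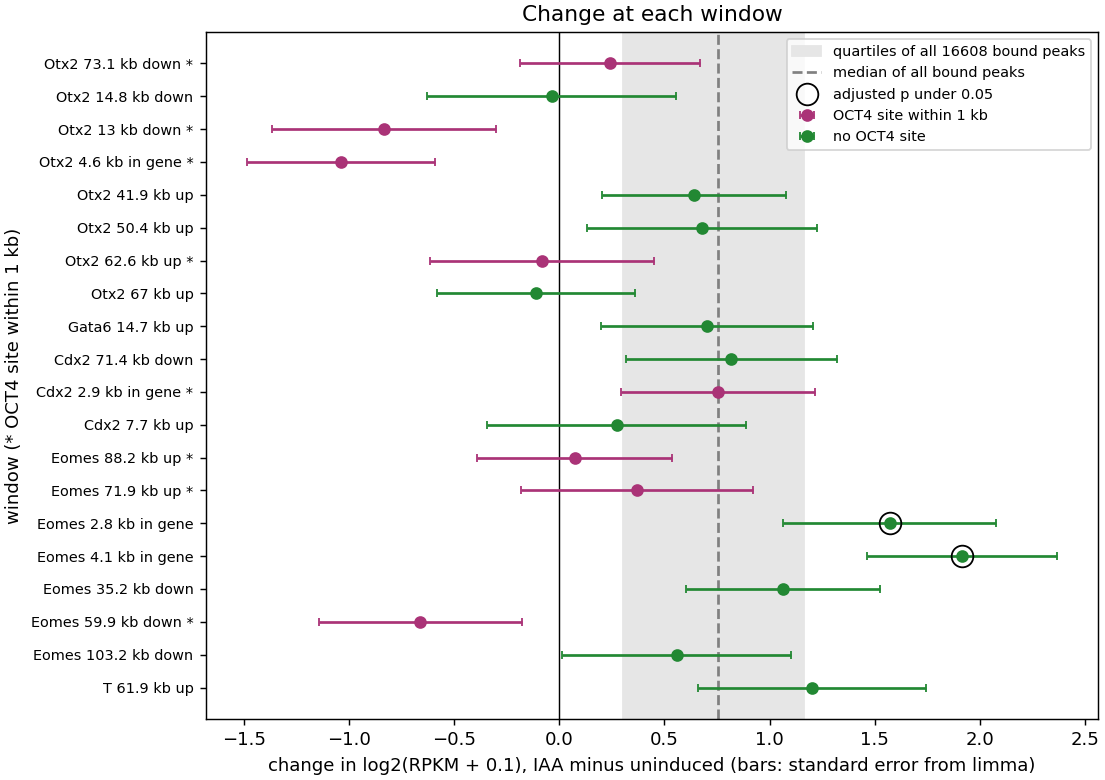
Change in log2(RPKM + 0.1), IAA minus uninduced, at each window with the standard error from limma as bars, purple with and green without an OCT4 site within 1 kb. The grey band spans the quartiles of all 16608 bound peaks (0.30 to 1.16) and the dashed line their median of 0.76; the circled points are the 2 windows in Eomes past the threshold, and the 3 lowest points all carry the OCT4 flag.

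At Eomes, 7 windows lay on both sides of the gene and within it. The window with the greatest change lay 4.1 kb into the gene (chr9:118482122-118482472), where 89 of its bases are coding sequence and 266 lie in annotated exons. Its signal was 2.42 and 2.44 RPKM in uninduced replicates 1 and 2, from 7 and 10 reads, and 10.6 and 8.43 RPKM in IAA replicates 1 and 2, from 73 and 16 reads. Both IAA libraries were high, both uninduced libraries were low and close to each other, and the groups did not overlap. The change was 1.92 ± 0.45 in log2(RPKM + 0.1) (SE, n = 2 against 2; limma adjusted p = 0.0029), a ratio of mean RPKM of 3.91-fold. This change lay at the 96.7th percentile of all bound peaks. Mean signal was 2.43 ± 0.014 RPKM in uninduced cells and 9.51 ± 1.5 RPKM after IAA (SD, n = 2 each). The exact 95% Poisson intervals of the uninduced values, for counting error only, were wider than this SD, at 0.973 to 4.99 and 1.17 to 4.49 RPKM.

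The second window inside Eomes lay 1265 bp away, 2.8 kb into the gene and in an intron (chr9:118480857-118481207). It gave 1.73 and 1.95 RPKM in uninduced cells, from 5 and 8 reads, and 5.51 and 5.80 RPKM after IAA, from 38 and 11 reads. The IAA libraries were again both high and did not overlap the uninduced ones. The change was 1.57 ± 0.51 in log2(RPKM + 0.1) (SE, n = 2 against 2; limma adjusted p = 0.0241), a ratio of 3.07-fold. Neither window had an OCT4 site within 1 kb, and neither of the printed sequences holds an octamer or SOX core. Both changes stayed positive under all 13 alternatives. The calls were lost when libraries were scaled to reads in bound peaks (changes of 1.22 at the window 4.1 kb in and 0.88 at the other, limma adjusted p of 0.084 and 0.306). They were also lost under quantile normalization (1.24 and 0.91) and without a variance trend, which leaves the changes as they are. In these settings, in that order, 43, 0 and 157 of all 16608 bound peaks were called higher, against 2493 in the main fit. Without uninduced replicate 1 the changes were 1.91 at the window 4.1 kb in and 1.49 at the other, and without uninduced replicate 2 they were 1.92 and 1.65. The changes stayed about as large without IAA replicate 1 (1.75 and 1.61, limma adjusted p of 0.278 and 0.322) and without IAA replicate 2 (2.08 and 1.53, limma adjusted p of 0.547 at both), where limma called 0 of all 16608 bound peaks, with 2266 and 1402 of them higher at an unadjusted p under 0.05.

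The 3 windows downstream of Eomes lay in the neighbouring gene Golga4, which encodes a golgin of the trans-Golgi network. The one 35.2 kb from the Eomes start (chr9:118513261-118513611), 744 bp from the nearest of several Golga4 transcript starts, held 2.08 and 4.39 RPKM in uninduced cells and 7.84 and 5.27 RPKM after IAA. Both IAA values exceeded both uninduced values, but uninduced replicate 2 came near IAA replicate 2, and the change of 1.06 ± 0.46 did not pass the threshold (SE, n = 2 against 2; limma adjusted p = 0.0893). The next (chr9:118537946-118538296), 59.9 kb from the Eomes start and with an OCT4 site, was ordered the other way, with 4.50 and 4.88 RPKM in uninduced cells and 2.32 and 3.69 RPKM after IAA. It is one of the 2 members where both IAA libraries lay below both uninduced libraries. Its change of -0.66 ± 0.48 did not pass the threshold (SE, n = 2 against 2; limma adjusted p = 0.319), and it lay at the 3.15th percentile of all bound peaks. The farthest window (chr9:118581207-118581557), 95.2 kb past the end of Eomes, had 2.42 and 1.95 RPKM in uninduced cells and 3.34 and 3.16 RPKM after IAA, without overlap and without a call.

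The 2 windows upstream of Eomes both had an OCT4 site and overlapping groups. At 88.2 kb upstream (chr9:118389832-118390182) the values were 2.77 and 6.34 RPKM in uninduced cells and 4.64 and 4.22 RPKM after IAA. At 71.9 kb upstream (chr9:118406113-118406463), the only member in the active promoter class, they were 1.38 and 3.66 RPKM in uninduced cells and 2.76 and 3.16 RPKM after IAA. That class rests on published peak sets, and this window overlapped no RefSeq promoter and had its centre in no annotated gene. At both windows, uninduced replicate 2 was the highest library and uninduced replicate 1 the lowest. The uninduced spread thus enclosed both IAA values. Summed over the 7 Eomes windows, signal was 17.3 and 25.6 RPKM in uninduced cells and 37.0 and 33.7 RPKM after IAA, a difference of 0.74 in the log2 of the sum. Both IAA sums were above both uninduced sums, with p = 0.33 in an exact permutation test (two-sided), the smallest that 2 libraries against 2 can give. The same difference over all bound peaks was 0.72. For Eomes it was 0.03 after scaling to reads in bound peaks, 0.04 under quantile normalization, 0.46 without uninduced replicate 1, and 1.53 over the 3 windows within 50 kb of the gene.

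**Figure D3:**
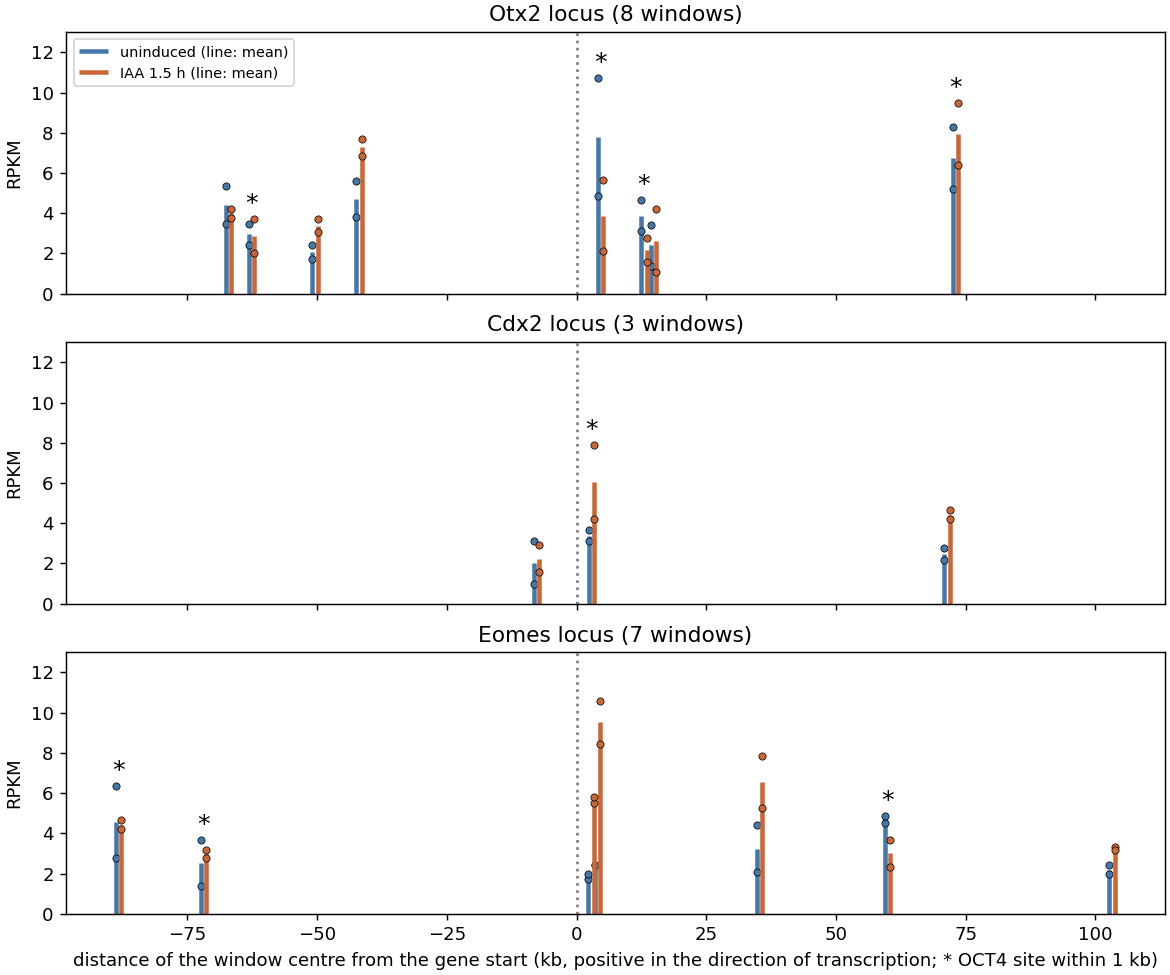
NANOG signal in RPKM against distance from the gene start (kb, positive in the direction of transcription) at the Otx2, Cdx2 and Eomes loci; lines are condition means, points are the 2 libraries and asterisks mark an OCT4 site within 1 kb. The IAA lines stand above the uninduced lines at 2.8 and 4.1 kb in Eomes, while at 4.6 and 13 kb from the Otx2 start the uninduced lines are the taller.

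At Otx2, 0 of the 8 windows passed the threshold in either direction, beside 15.0% of all bound peaks called higher and 0.337% called lower. The groups overlapped at 5 of the 8, beside 5850 of all 16608 bound peaks. The window inside the gene (chr14:48662910-48663260) lay in an intron 4.6 kb from the gene start and 213 bp from the start of a shorter Otx2 transcript, and 75 of its bases lay within the RefSeq promoter of Otx2. It has an OCT4 site within 1 kb and an octamer in the sequence printed first. Its signal was 4.84 and 10.7 RPKM in uninduced cells, from 14 and 44 reads, and 5.66 and 2.11 RPKM after IAA, from 39 and 4 reads. Uninduced replicate 2 was highest and IAA replicate 2 lowest, and the other libraries overlapped in between. The change was -1.04 ± 0.45 in log2(RPKM + 0.1) (SE, n = 2 against 2; limma adjusted p = 0.088), which missed the threshold although it lay at the 1.00th percentile of all bound peaks. The exact 95% Poisson interval of the 4 reads in IAA replicate 2 was 0.574 to 5.40 RPKM and covers counting error only. Without uninduced replicate 1 the change was -1.60, and across the 4 ways of leaving out a library it ran from -1.73 to -0.35. Leaving out uninduced replicate 1 also lowered the median change of all bound peaks, to 0.51 from 0.76.

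The other window where both IAA libraries lay below both uninduced libraries was 3.0 kb past the end of Otx2 (chr14:48654515-48654865), also with an OCT4 site. It held 3.11 and 4.64 RPKM in uninduced cells and 2.76 and 1.58 RPKM after IAA, the last from 3 reads. The gap between the closest uninduced and IAA libraries was small, and the change of -0.83 ± 0.53 did not pass the threshold (SE, n = 2 against 2; limma adjusted p = 0.249). Its neighbour 1845 bp farther from the gene (chr14:48652670-48653020), without an OCT4 site, gave 1.38 and 3.42 RPKM in uninduced cells and 4.21 and 1.05 RPKM after IAA, so one IAA library was the highest of the 4 and the other, with 2 reads, the lowest.

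The strongest window at Otx2 by mean RPKM lay 63.1 kb past its end, within the long non-coding RNA gene Gm49120 (chr14:48594390-48594740), and had an OCT4 site. Its values were 5.19 and 8.30 RPKM in uninduced cells and 6.38 and 9.49 RPKM after IAA, which interleave. The mean level was at the 88.3rd percentile of bound peaks, the highest among the 20 members.

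Upstream of Otx2, 4 windows lay in the non-coding RNA gene Otx2os1, transcribed from the other strand. The window 41.9 kb upstream (chr14:48709407-48709757) was the strongest of these, with 3.80 and 5.61 RPKM in uninduced cells and 7.69 and 6.85 RPKM after IAA, and its groups did not overlap. The window 50.4 kb upstream (chr14:48717884-48718234) was weaker but ordered alike, with 1.73 and 2.44 RPKM before and 3.05 and 3.69 RPKM after IAA. Their changes, 0.64 and 0.68, were near the median of all bound peaks and turned slightly negative under both other scalings. The window with the second octamer, 62.6 kb upstream (chr14:48730065-48730415) and with an OCT4 site, had 3.46 and 2.44 RPKM in uninduced cells and 2.03 and 3.69 RPKM after IAA. The farthest, 67.0 kb upstream (chr14:48734449-48734799), had 3.46 and 5.37 RPKM before and 3.77 and 4.22 RPKM after IAA, and at both of these the groups overlapped.

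Summed over its 8 windows, Otx2 had 27.0 and 42.9 RPKM in uninduced cells and 35.5 and 32.7 RPKM after IAA. Both IAA sums fell between the uninduced sums, the log2 difference was 0.00 and the exact permutation test gave p = 1.00. The 4 flagged Otx2 windows had a median change of -0.46 and the 4 unflagged ones a median of 0.30, and 0 of the 8 exceeded the median of all bound peaks.

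At Cdx2, the window inside the gene (chr5:147304221-147304571) lay in an intron 2.9 kb from the gene start. It was the only member in the repressed chromatin class, it had an OCT4 site, and the sequence printed for it holds a SOX core. Its signal was 3.11 and 3.66 RPKM in uninduced cells and 4.21 and 7.90 RPKM after IAA. Both IAA libraries were above both uninduced libraries, but they differed from each other by more than IAA replicate 1 differed from uninduced replicate 2. The change of 0.76 ± 0.46 equalled the median of all bound peaks to the second decimal and did not pass the threshold (SE, n = 2 against 2; limma adjusted p = 0.225). Of the 8 members with an OCT4 site, this was the one where both IAA libraries lay above.

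The other Cdx2 windows had no flag. The one 7.7 kb upstream (chr5:147314752-147315102) lay nearer to the start of Urad, a gene of the urate pathway, and its values of 3.11 and 0.976 RPKM in uninduced cells and 2.90 and 1.58 RPKM after IAA overlapped. The one 71.4 kb downstream of the Cdx2 start (chr5:147235733-147236083) lay in Plut, a non-coding RNA antisense to the neighbouring homeobox gene Pdx1. It held 2.77 and 2.20 RPKM before and 4.64 and 4.22 RPKM after IAA, without overlap and with a change of 0.82. The Cdx2 sums were 8.99 and 6.83 RPKM in uninduced cells and 11.8 and 13.7 RPKM after IAA. Their log2 difference was 0.69 (exact permutation p = 0.33), near the 0.72 over all bound peaks, and it was -0.02 after scaling to reads in bound peaks.

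T and Gata6 had 1 window each. The T window (chr17:8372323-8372673) lay 61.9 kb upstream, outside 50 kb of the gene, and 102 bp from the nearest of several transcript starts of T2, a neighbouring gene, with 109 of its bases in annotated exons. Its signal was 1.38 and 2.20 RPKM in uninduced cells, from 4 and 9 reads, and 3.63 and 4.74 RPKM after IAA, from 25 and 9 reads. Both IAA libraries were above both uninduced libraries, and the change of 1.20 ± 0.54 did not pass the threshold (SE, n = 2 against 2; limma adjusted p = 0.1015). The Gata6 window (chr18:11037670-11038020) lay 14.7 kb upstream within the non-coding gene 1010001N08Rik. It held 2.42 and 2.68 RPKM before, from 7 and 11 reads, and 4.21 and 4.22 RPKM after IAA, from 29 and 8 reads. The exact 95% Poisson interval of the 8 reads in IAA replicate 2 was 1.82 to 8.31 RPKM. Replicates were close together and the groups did not overlap, while the change of 0.70 ± 0.50 was just under the median of all bound peaks (SE, n = 2 against 2; limma adjusted p = 0.308). Neither window had a flag.

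The nearest bound peaks outside the limit of 100 kb lay from 111.0 kb (T) to 134.1 kb (Otx2) from the gene bodies. At Gata6 the first outside, at 129.4 kb, was stronger than any member, with 7.96 and 9.52 RPKM in uninduced cells and 15.7 and 24.8 RPKM after IAA.

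Other regulators of the same lineages gave a comparison by distance. Of 18 further loci, 13 had at least 1 bound peak within 100 kb, and Elf5, Gata4, Sox17, Sox7 and Mixl1 had none. Their 36 bound peaks had a median change of 0.72. Of these, 5 were called higher and 1, near the trophectoderm gene Tead4, was called lower, beside 15.0% and 0.337% of all bound peaks. Both IAA libraries lay above at 24 (66.7%), beside 60.5% of all bound peaks. By lineage the medians were 0.57 for 16 peaks at trophectoderm genes, 0.85 for 5 at primitive endoderm genes, 0.29 for 7 at primitive streak and mesoderm genes and 0.96 for 8 at epiblast and neural genes. The OCT4 flag was set at 5, 1, 3 and 0 of these peaks, in that order, so lineage and flag are not separated here. Summed by locus, 12 of the 13 were positive and 1, Mesp1, a mesoderm gene with a single bound peak, was negative at -0.32. By the root mean square difference of log2 sums over the 4 libraries, the locus most like Eomes was Tead4 (0.18), which was also the most like Otx2 (0.44). This measure compares the level in each library and not the change, which was 0.42 at Tead4, 0.74 at Eomes and 0.00 at Otx2. The most like Cdx2 was Sox1 (0.42), the most like T was Pou3f1 (0.37) and the most like Gata6 was Fgf5 (0.48).

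**Figure D4:**
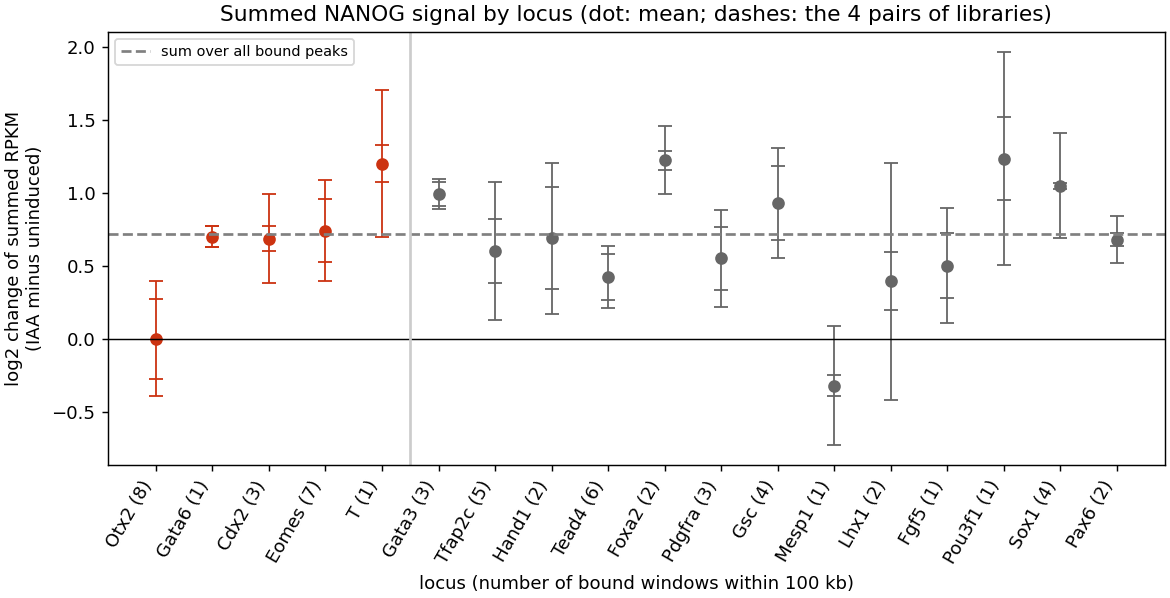
Log2 change of summed RPKM, IAA minus uninduced, at the 5 loci (red) and at 13 loci of other lineage regulators (grey), with the number of bound windows in brackets; dots are means and dashes are the 4 pairs of 1 IAA and 1 uninduced library. Otx2 lies at 0.00 with pairs on both sides, Gata6, Cdx2 and Eomes lie near the dashed line for all bound peaks (0.72), and T lies at 1.20.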

How the data were processed

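According to its methods and labels, the study mapped reads with Bowtie2 2.3.4.3 (GRCm38/mm10), removed duplicates and ran MACS2 once over the combined conditions to find NANOG peaks. The deposited RPKM values were computed by the authors with DiffBind. No input subtraction or spike-in scaling is stated. The flags come from published OCT4 reads and peak sets. All values (100.0%, tolerance 0.01) were whole multiples of the value of 1 read.

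Bound peaks were tested with limma 3.58.1 (R 4.3.3; lmFit, eBayes with a trend, two-sided, Benjamini-Hochberg, threshold 0.05) on log2(RPKM + 0.1), which shrinks the changes of weak windows. Locus sums were compared by exact permutation. Gene positions are from GENCODE mouse release M21 and coordinates are 1-based. The fit was checked on simulated data. The members, lists and tests were chosen with earlier results of these data known. The text names every member: the strongest, flagged, called and gene-proximal windows were required, and the rest are given by values. Alternatives were other pseudocounts, filters, scalings, a replicate block, no trend, voom, merged reads, a distance of 50 kb and leaving out each library.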

Additional observations from a re-analysis of the deposited data

How the results depend on the processing

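The calls depended on the scaling and the variance trend. The number of members called higher was 2 as reported and 0 under quantile normalization, scaling to reads in bound peaks or eBayes without a trend, and it ran from 0 to 5 when 1 library was left out (0 without either IAA library, where 0 of all bound peaks were called by limma and 2266 and 1402 were higher at an unadjusted p under 0.05; 5 without uninduced replicate 2). In these fits the lone library of a group is assumed to vary like the other group. In every fit that kept all libraries, 0 members were called lower. The window inside Otx2 changed by -1.60 without uninduced replicate 1, against -1.04 in the main fit. Both fits without an IAA library were void for single calls. The 2 Eomes windows missed the threshold under quantile normalization (adjusted p of 0.151 and 0.277) and without a trend (0.054 and 0.071). Deviations of same-numbered libraries were nearly uncorrelated across bound peaks (Pearson r = 0.0055). At these low read counts that cannot show whether same-numbered libraries were prepared together. With the replicate block 2 members were called higher and 0 lower, as without it, with 2655 against 2493 higher over all bound peaks. The median change of members was -0.298 under quantile normalization, -0.226 with scaling to reads in bound peaks, 0.671 within 50 kb, and 0.404 to 0.658 leaving out a library. The Otx2 sum changed sign at -0.714 with scaling to reads in bound peaks, -0.700 under quantile normalization, -0.0571 on merged reads and -0.221 within 50 kb, and ran from -0.333 to 0.336 leaving out a library. The Cdx2 sum changed sign at -0.0228 and -0.0410 under the same scaling and quantile normalization.

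Of the 20 windows, 10 kept their sign under all 13 alternatives. The others turned under quantile normalization and under scaling to reads in bound peaks, in that order, at Otx2 48594390 (-0.458 and -0.465), Otx2 48709407 (-0.00677 and -0.0648), Otx2 48717884 (-0.0709 and -0.0103), Cdx2 147314752 (-0.477 and -0.413), Eomes 118389832 (-0.597 and -0.625), Eomes 118406113 (-0.447 and -0.316) and Eomes 118581207 (-0.149 and -0.135), named by their start. Under voom Otx2 48652670 was at 0.267. Leaving out a library, changes ran from -0.0910 to 0.576 at Otx2 48594390, -0.985 to 0.915 at Otx2 48652670, -0.496 to 0.334 at Otx2 48730065, -0.420 to 0.200 at Otx2 48734449, -0.516 to 1.06 at Cdx2 147314752, -0.510 to 0.658 at Eomes 118389832 and -0.301 to 1.04 at Eomes 118406113. The cause of these changes was not tested. Depth limits single windows most in IAA replicate 2, where members held 2 to 18 reads.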
